A study of Mus musculus with 3 samples.

Results

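The genes described are 10 transcription factors and cofactors that act early in innate lymphoid cell (ILC) and T cell development: Tcf7, Lef1, Zbtb16, Tox, Tox2, Sox4, Nfil3, Id2, Bcl11b and Sox13. They were taken by symbol from 32285 gene rows, and each symbol matched 1 row. Their levels were read in 3 single-cell libraries and, within them, in CD3-negative cells (no UMI of Cd3e or Cd3d), gamma delta cells (at least 2 UMIs of Trdc) and alpha beta cells (at least 1 UMI each of Trac and Cd3e). A UMI, or unique molecular identifier, marks 1 captured RNA molecule.

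All cells came from digested lungs of mice carrying a GFP reporter of GFI1B, and were sorted as live CD45+, lineage-negative, CD90.2+ and IL-7R+. The first library was a pool of 2 sorts, with IL-18R+ CD103+ GFP- cells in one and IL-18R+ CD103- GFP+ cells in the other, which cannot be told apart by barcode. The second carried the label IL-18R- CD103- GFP- and is called the library labelled all-negative. The third was IL-18R- ST2+. ST2 is the IL-33 receptor chain of mature ILC2s, the ILC type of allergic responses. Each group was 1 library, so differences have no replicate check, and intervals below are exact 95% limits of counting error only. The sources used here give no age, sex or number of mice.

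After filtering, 1655, 1872 and 1611 cells remained in the pool, the library labelled all-negative and the IL-18R- ST2+ library, with medians of 4930, 4768 and 4568 UMIs per cell. Of the 3 library pairs, 1 shared a single barcode and the others shared 0. Il18r1 went against the second label: it had a UMI in 86.7% of pool cells, 86.2% of cells of the library labelled all-negative and 5.90% of IL-18R- ST2+ cells. Gfi1b, the reporter's gene, had 0 UMIs in every library. Il1rl1, which encodes ST2, fitted the third label, with a UMI in 1.21%, 1.18% and 93.1% of cells. Despite a sort gated as lineage-negative, gamma delta cells numbered 868, 1457 and 15, alpha beta cells 373, 328 and 6, and CD3-negative cells 424, 225 and 1548. The classes overlap: 149 pool cells and 225 cells of the library labelled all-negative were both gamma delta and alpha beta by these rules.

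TCF-1 (Tcf7) and its relative LEF-1 are HMG-box factors that act with beta-catenin and chromatin regulators in the first steps toward the T cell and ILC fates. In mouse ILC progenitors NFIL3, TOX, TCF-1, ID2 and PLZF (Zbtb16) are each needed for, or mark, a step of the path, and PLZF also programmes innate-like T cells. ID2 blocks E proteins, which bind E-box DNA and drive B and T cell genes. BCL11B holds T cells to their lineage and is also needed by ILC2s, SOX4 and SOX13 act in IL-17-producing gamma delta T cells, and TOX2 is a paralogue of TOX with a role in human NK cells.

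Tox2 and Sox4 are shown by sequence because both were higher in CD3-negative cells than in T cells of the pool and of the second library. Tox2 lies on chromosome 2 (chr2:163203125-163324170, plus strand) and Sox4 on chromosome 13 (chr13:28948919-28953713, minus strand) in GENCODE M21 on GRCm38. The other members lie at chr11:52252371-52283014 (Tcf7, minus), chr3:131110471-131224356 (Lef1, plus), chr9:48654297-48836222 (Zbtb16, minus), chr4:6686353-6991557 (Tox, minus) and chr13:52967209-52981073 (Nfil3, minus). Id2 is at chr12:25093799-25097140, Bcl11b at chr12:107910403-108003602 and Sox13 at chr1:133382303-133424377, all on the minus strand. The bases just before the transcript start follow, from RefSeq on GRCm38.p6, 5′ to 3′ on the gene's strand; for Tox2 they span chr2:163202877-163203124 and for Sox4 chr13:28953714-28953949. Capitals mark the E-box CANNTG, the motif that E proteins bind.
Tox2: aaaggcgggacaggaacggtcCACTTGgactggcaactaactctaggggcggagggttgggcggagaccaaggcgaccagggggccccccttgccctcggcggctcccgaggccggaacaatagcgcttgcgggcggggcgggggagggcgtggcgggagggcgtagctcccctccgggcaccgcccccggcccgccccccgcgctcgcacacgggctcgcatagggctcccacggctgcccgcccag
Sox4: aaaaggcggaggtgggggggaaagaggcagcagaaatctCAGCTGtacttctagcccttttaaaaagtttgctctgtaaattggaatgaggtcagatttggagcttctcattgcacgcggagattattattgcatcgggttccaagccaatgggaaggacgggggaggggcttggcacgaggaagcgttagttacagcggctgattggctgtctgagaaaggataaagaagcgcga
Each stretch held 1 match, CACTTG for Tox2 and CAGCTG for Sox4. The same motif, searched on both strands, occurred in 72.3% of 32851 RefSeq promoter windows of 300 bases, so a match there is common. The stretches differed in GC content, 75% for Tox2 and 50% for Sox4. RefSeq windows were held for 8 of the 10 members.

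Across whole libraries the pool differed in most members from the IL-18R- ST2+ library: Tcf7, Zbtb16, Tox2, Sox4, Nfil3 and Sox13 were all higher in the pool, while Tox was close to equal. Levels are given as UMIs per 1000000 UMIs of the summed cells (UPM). A gene counted as higher if its ratio was at least 2, with sums raised to a floor of 3 UMIs, and its level at least 20 UPM in either library. By that rule 6 of 10 members were higher in the pool, where 12.3% of 5930 genes were. None was higher in the opposite direction, where 4.33% were. The median log2 ratio was 1.98 over the members and 0.30 over all genes measured.

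Tcf7 had 204, 183 and 19.0 UPM in the pool, the library labelled all-negative and the IL-18R- ST2+ library, in 48.1%, 47.0% and 6.70% of cells. The pool and the library labelled all-negative thus stood about level, 10.7-fold (9.09 to 12.8) and 9.61-fold (8.13 to 11.4) above the IL-18R- ST2+ library. Zbtb16 had 80.4, 52.3 and 5.07 UPM in the same order, in 28.3%, 21.1% and 2.17% of cells. Its order was pool, then the library labelled all-negative, then IL-18R- ST2+, and the 3 intervals did not meet. Sox13 had 64.2 and 75.8 UPM in the pool and the library labelled all-negative, and 0.127 UPM, a single UMI, in the IL-18R- ST2+ library.

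Tox2 and Sox4 were the members in which the pool stood alone. Tox2 had 20.2, 3.33 and 0.253 UPM in the 3 libraries, from 181, 32 and 2 UMIs. Sox4 had 43.5, 9.69 and 6.46 UPM. Tox2 was 6.05-fold (4.14 to 9.11) and Sox4 4.49-fold (3.57 to 5.69) higher in the pool than in the library labelled all-negative. These were the 2 of 10 members higher in the pool in that pair, where 2.55% of 5812 genes were, and Tox2, just above the level minimum, was below it under other scalings. Lef1 was the 1 member higher in the library labelled all-negative, where 0.791% of genes were.

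Lef1 broke from its relative Tcf7. It had 40.7, 98.3 and 25.1 UPM in the pool, the library labelled all-negative and the IL-18R- ST2+ library, in 13.3%, 27.6% and 9.68% of cells. The level in the pool was therefore 0.414 of that in the library labelled all-negative (0.366 to 0.467), although Tcf7 differed by only 1.12-fold. In the library labelled all-negative over IL-18R- ST2+, Lef1 (3.92-fold), Tcf7, Zbtb16 and Sox13 were 4 of 8 measured members that were higher, where 9.57% of 5736 genes were. None of the 8 was lower, where 5.4% of genes were; 2 of the 10, Tox2 and Sox4, were under 20 UPM in both.

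The remaining members varied less. Id2 was present throughout, at 433, 356 and 667 UPM in the 3 libraries, and was highest in the IL-18R- ST2+ library. Bcl11b had 294, 272 and 234 UPM and Tox 63.0, 60.1 and 61.1 UPM. In UPM, Tox therefore differed by no more than its counting error between any pair of libraries. TMM scaling shifted log2 ratios of the pool over the IL-18R- ST2+ library by -0.32. That was more than the log2 ratio of 0.04 for Tox, whose direction it turned. Nfil3 had 128, 99.7 and 55.6 UPM, and was 2.30-fold (2.06 to 2.57) higher in the pool than in the IL-18R- ST2+ library.

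**Figure D1:**
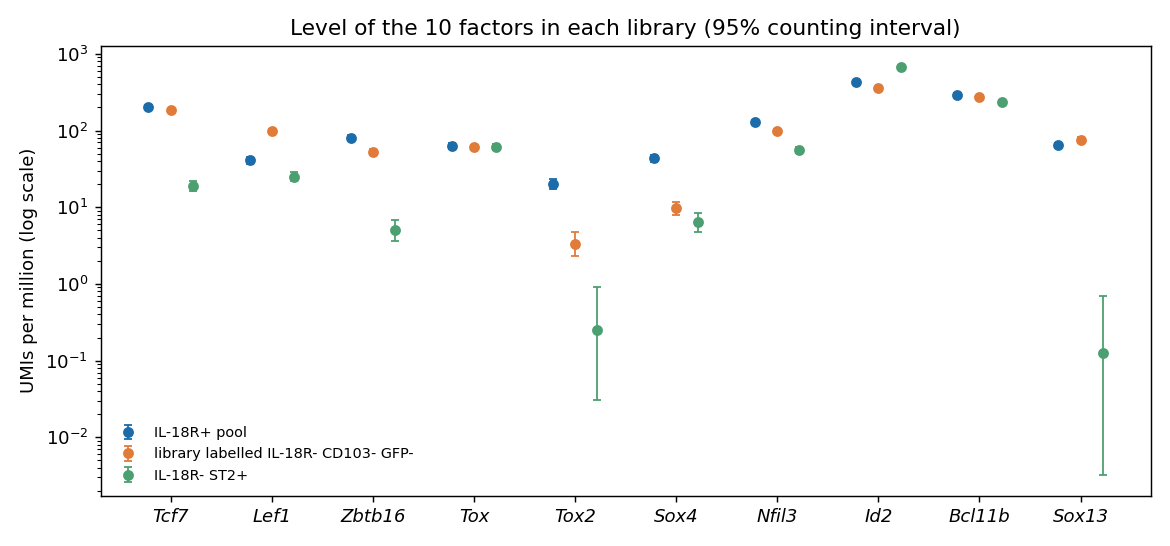
Level of each of the 10 factors (x axis) in UPM (y axis, log scale) in the 3 libraries (the second under its deposited label), 1 point per library with its exact 95% counting interval. Tcf7, Zbtb16 and Sox13 are low in the IL-18R- ST2+ library alone, Tox2 and Sox4 are high in the pool alone, and Tox is level.

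Whole-library levels mix cell types, and fewer cells of a type cannot be told apart in them from less RNA per cell. Within the pool, CD3-negative cells had more Tox2 and Sox4 than T cells, and less Bcl11b and Sox13. Tox2 had 65.1 UPM in CD3-negative cells, against 0.238 UPM in gamma delta cells and 0.486 UPM in alpha beta cells, 1 UMI in each. Sox4 had 128 UPM in CD3-negative cells, against 3.10 UPM in gamma delta cells and 3.89 UPM in alpha beta cells. The ratio of CD3-negative to gamma delta cells was 41.4-fold (23.9 to 78.5) for Sox4.

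Bcl11b ran the other way, with 93.3 UPM in CD3-negative cells, against 409 UPM in gamma delta cells and 355 UPM in alpha beta cells. Sox13, the gamma delta factor, had 5.49 UPM in CD3-negative cells, against 125 UPM in gamma delta cells and 58.3 UPM in alpha beta cells. In CD3-negative over gamma delta cells of the pool, 2 members were thus higher and 2 lower, where 13.5% and 5.19% of 6459 genes were. Over alpha beta cells 3 were higher, with Tox (2.27-fold, 1.77 to 2.93) as the addition, and 2 lower, where 12.9% and 4.22% of genes were.

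Tcf7 did not divide the classes in the way Tox2 and Sox4 did. It had 266 UPM in CD3-negative cells of the pool, against 141 UPM in gamma delta and 207 UPM in alpha beta cells, and it was found in 46.2%, 42.3% and 57.1% of them. Zbtb16 had 64.8 UPM in CD3-negative cells, against 84.1 UPM in gamma delta and 91.3 UPM in alpha beta cells. Lef1 (36.2, 33.8 and 48.6 UPM) and Nfil3 (99.9, 152 and 133 UPM) also differed by less than 2-fold between the same classes. Id2 was somewhat higher in CD3-negative cells, at 547 UPM against 372 UPM in gamma delta and 390 UPM in alpha beta cells.

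Cells of other lineages were part of the CD3-negative class. In the pool 130 of 424 CD3-negative cells carried marker sets of endothelium (54 cells), myeloid cells (49), B cells (21) or other types, against 23 of 225 in the library labelled all-negative and 25 of 1548 in the IL-18R- ST2+ library. Endothelium-list cells of the pool had Sox4 at 181 UPM, Tox2 at 82.3 UPM and Sox13 at 57.6 UPM. In CD3-negative cells the 5 genes of the endothelium list summed to 686 UPM in the pool. They summed to 342 UPM in the library labelled all-negative and 46.9 UPM in the IL-18R- ST2+ library. The 8 myeloid genes summed to 5458, 4999 and 387 UPM in the same order, with 49, 8 and 6 myeloid-list cells. That sum includes Fcer1g, which ILC and NK cells also express and which was left out of the lineage call. Without all other-lineage cells, 294 CD3-negative cells of the pool had Tox2 at 76.0 UPM, Sox4 at 146 UPM, Tcf7 at 333 UPM and Sox13 at 0.478 UPM, 1 UMI of the 15 in the whole class. So Tox2 and Sox4 were no lower without them. Tcf7 (2.37-fold, 2.12 to 2.65) and Tox (2.18-fold, 1.82 to 2.61) then joined Tox2 and Sox4 above gamma delta cells, 4 members where 8.23% of genes were, and Bcl11b and Sox13 were still lower, where 5.96% were. Over alpha beta cells the 3 higher and 2 lower members were those named above, where 7.23% and 4.86% of genes were.

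Shares of cells were set beside those in myeloid-list cells, since free RNA gives UMIs to any droplet. Whether a UMI in a myeloid-list cell was free RNA or the cell's own was not tested. In the pool, 49 myeloid-list cells, with a median of 5439 UMIs, had Tcf7, Lef1, Tox2, Bcl11b and Sox13 in 0 cells. A count of 0 allows up to 3 cells, a share of 6.12%, and Zbtb16 was in 8.16%. Sox4 and Tox were each in 2.04% of them, Nfil3 in 51.0% and Id2 in 42.9%, so shares of Nfil3 and Id2 are not read here. The shares of Tcf7, Bcl11b and Zbtb16 in lymphoid classes of the pool lay above these values; the 0.922% of gamma delta cells with Sox4 did not.

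**Figure D2:**
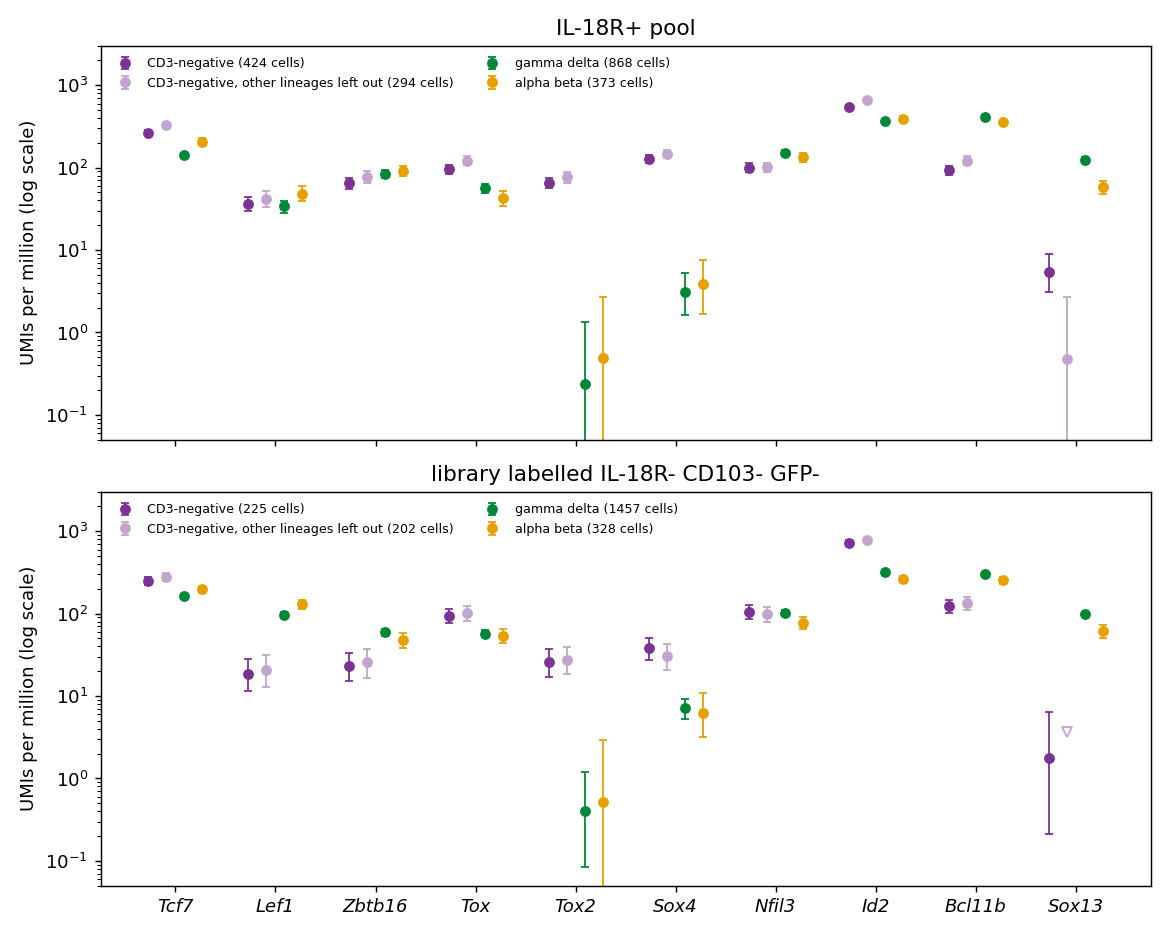
Level of each factor (x axis) in UPM (y axis, log scale) by cell class, in the pool (upper) and the library labelled all-negative (lower), with exact 95% counting intervals. An open triangle stands for 0 UMIs, drawn at the upper limit. Tox2 and Sox4 are higher in CD3-negative cells than in both T cell classes, and Sox13 is lower. The T cell classes drawn share cells, and Sox13 in alpha beta cells was lower with disjoint classes.

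The library labelled all-negative showed the same division for Tox2, Sox4, Bcl11b and Sox13, and others in addition. In CD3-negative cells Tox2 had 25.7 UPM, against 0.408 UPM in gamma delta and 0.520 UPM in alpha beta cells. Sox4 had 38.1 UPM in CD3-negative cells, against 7.07 and 6.24 UPM in gamma delta and alpha beta cells. Id2 had 725 UPM, against 321 and 264 UPM. These 3 were higher in CD3-negative cells in both comparisons, where 9.17% of 6138 genes were over gamma delta cells and 10.8% of 6117 over alpha beta cells.

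Lef1, Zbtb16, Bcl11b and Sox13 were the 4 lower ones in both, where 2.82% and 2.96% of genes were. Over alpha beta cells Zbtb16 (25.6 UPM in CD3-negative and 47.9 UPM in alpha beta cells) and Bcl11b (133 and 253 UPM) no longer passed without other lineages, and with disjoint classes only Lef1 did. Lef1 had 18.6 UPM in CD3-negative cells of this library, against 96.8 UPM in gamma delta and 131 UPM in alpha beta cells. Zbtb16 had 23.0 UPM, against 59.5 and 47.9 UPM. The difference in Lef1 was thus 5.20-fold (3.38 to 8.46) toward gamma delta cells in this library, where the pool had 1.07-fold (0.820 to 1.39) toward CD3-negative cells. The difference between the libraries was not tested.

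Gamma delta and alpha beta cells could be compared only in part, since 149 of 373 alpha beta cells of the pool and 225 of 328 of the library labelled all-negative were in both classes. Of 8 measured members in the pool, Sox13 was higher in gamma delta cells (2.15-fold, 1.76 to 2.64), where 0.636% of 5658 genes were, and 0 were higher in alpha beta cells, where 1.04% were. In the library labelled all-negative 0 of 8 were higher on either side, where 0.0724% and 0.434% of 5528 genes were. With disjoint classes (gamma delta cells without a Trac UMI, alpha beta cells with under 2 Trdc UMIs) the members stood further apart. Sox13 then had 126 UPM in gamma delta cells and 19.4 UPM in alpha beta cells of the pool, and 98.9 UPM and 1.49 UPM, a single UMI, in the library labelled all-negative. Lef1 had 96.6 UPM in gamma delta cells and 193 UPM in alpha beta cells of the library labelled all-negative, and passed the rule. Tcf7 (140 and 244 UPM) and Tox (54.6 and 30.2 UPM) differed in the pool by less than 2-fold, with intervals that did not meet. In the library labelled all-negative the same held for Tcf7 (162 and 273 UPM), Id2 (324 and 171 UPM), Bcl11b (307 and 186 UPM), Nfil3 (106 and 58.0 UPM) and Zbtb16 (60.5 and 32.7 UPM).

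The factors that told the pool from the library labelled all-negative depended on the class. Among CD3-negative cells Zbtb16 was 2.81-fold (1.86 to 4.42), Tox2 2.54-fold (1.71 to 3.90) and Sox4 3.36-fold (2.44 to 4.73) higher in the pool, 3 of 9 measured members where 5.75% of 6431 genes were. None was higher in the library labelled all-negative, where 2.99% of genes were. Lists of other cell types moved in the same class: the 4 ILC3 genes summed to 134 UPM in the pool and 635 UPM in the library labelled all-negative, the 5 NK genes to 233 and 86.8 UPM, with Gzma at 0 in the library labelled all-negative, and the 4 epithelial genes to 1454 and 25.7 UPM. The part of ILC3 and NK genes in the differences was not tested. Tcf7 was level between them, at 266 UPM in the pool and 251 UPM in the library labelled all-negative, and so was Tox, at 95.9 and 93.0 UPM. Without other lineages the same 3 stood at 3.02-fold, 2.75-fold and 4.77-fold, and Lef1 joined them (2.03-fold, 1.25 to 3.44), 4 members where 4.3% of genes were, with 0 in the other direction, where 4.07% were.

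Within T cells the one member past the rule was Lef1, in the opposite direction. Gamma delta cells had Lef1 at 33.8 UPM in the pool and 96.8 UPM in the library labelled all-negative, in 13.1% and 27.7% of cells, and in 5.09% and 14.0% at 2000 UMIs per cell. Alpha beta cells had 48.6 and 131 UPM. The inverse ratios were 2.86-fold (2.39 to 3.45) and 2.69-fold (2.12 to 3.43), and 1.3% and 2.18% of genes were higher in the library labelled all-negative in these classes. In the pool direction 0 members were called in either class, where 0.444% and 2.3% of genes were; these T cell comparisons were added after the levels had been seen.

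**Figure D3:**
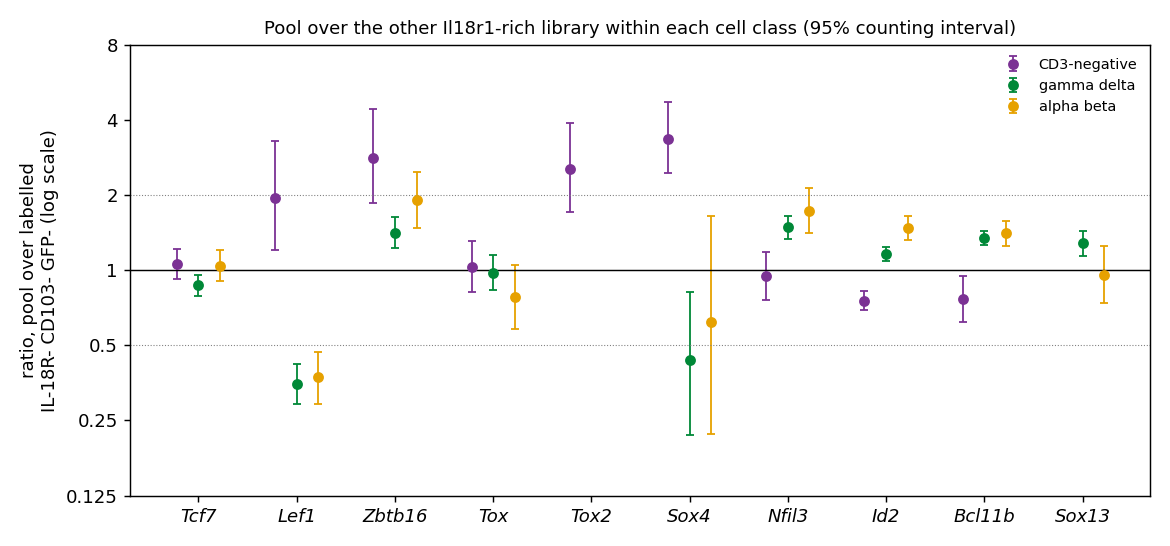
Ratio of the pool to the library labelled all-negative (y axis, log scale) for each factor (x axis) within CD3-negative, gamma delta and alpha beta cells, with exact 95% counting intervals. Pairs with under 20 UMIs in sum are not drawn, and dotted lines mark 2-fold. Lef1 lies above 1 in CD3-negative cells and below 0.5 in both T cell classes.

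Set against CD3-negative cells of the IL-18R- ST2+ library, CD3-negative cells of the pool had far more Tcf7, Zbtb16, Tox2 and Sox4. The 6 genes of an ILC2 marker list summed to 852 UPM in the pool and 3953 UPM in the IL-18R- ST2+ library in this class. Tcf7 had 266 UPM in the pool and 14.9 UPM in the IL-18R- ST2+ library, 17.8-fold (14.6 to 21.9). Zbtb16 had 64.8 and 5.02 UPM, and Sox4 128 and 5.81 UPM. Tox2 had 178 UMIs in the pool, against 2 in the IL-18R- ST2+ library. These 4 of 9 measured members were higher in the pool, where 18.8% of 6303 genes were, and Bcl11b was the 1 that was lower, where 3.97% were.

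Bcl11b, which ILC2s need, had 93.3 UPM in CD3-negative cells of the pool and 234 UPM in those of the IL-18R- ST2+ library, an inverse ratio of 2.51-fold (2.20 to 2.87). Without other lineages it had 121 and 239 UPM, 1.98-fold, just under the rule. In CD3-negative Il18r1-positive cells it had 116 and 221 UPM, 1.91-fold. That last comparison was added after the levels had been seen, and in it 6 of 9 measured members were higher in the pool, with Lef1 and Tox added to the 4 above, where 17.3% of genes were, and 0 lower, where 6.29% were. Without other lineages the same 4 as in the whole class were higher, where 13.9% of genes were, and 0 lower, where 4.79% were.

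Other genes of the same developmental path were taken from a list of 44. In CD3-negative over gamma delta cells of the pool, 14 of 36 measured genes were higher and 4 lower, where 13.5% and 5.19% of all genes were. Without other lineages 11 of 35 were higher and 3 lower, where 8.23% and 5.96% of all genes were. Among the higher were Kit, the stem cell factor receptor (188 UPM in CD3-negative cells, 2.38 in gamma delta cells), Hes1, a Notch target (178 and 2.86 UPM), Batf3 (61.5 and 0.238 UPM) and Hhex (43.2 and 0.476 UPM). The T cell side included Maf, a transcription factor of T cells, with 216 UPM in CD3-negative cells and 807 UPM in gamma delta cells. The median log2 ratio of the list was 0.24, beside 0.09 over all genes measured.

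Among CD3-negative cells, pool over the library labelled all-negative, 2 of 37 listed genes were higher and 3 lower, where 5.75% and 2.99% of all genes were, so the list as a whole was near the background. Id3 (3.27-fold), an E protein inhibitor like Id2, and Myb (4.43-fold), a factor of early haematopoietic cells, were the higher ones. The chemokine receptor gene Cxcr6 was lower, with 155 UPM in the pool and 485 UPM in the library labelled all-negative, and Il2rb and Maf with it. In gamma delta cells 0 of 29 were higher in the pool and 3 lower, where 0.444% and 1.3% of all genes were. The lower ones were Myb (3.10 and 24.7 UPM), Cd27 (13.6 and 67.0 UPM) and Tbx21. Myb, like Lef1, thus had opposite directions in CD3-negative and gamma delta cells, a difference that was not tested.

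The 280 CD3-negative Il18r1-positive cells of the pool, the 180 of the library labelled all-negative and the 83 of the IL-18R- ST2+ library allow the factors to be read cell by cell. Other lineages made up only 8, 2 and 1 of them. Tcf7 was found in 65.0%, 63.9% and 7.23% of these cells, and Zbtb16 in 29.3%, 11.7% and 6.02%. Sox4 was in 33.6%, 6.67% and 1.20%, and Tox2 in 19.3%, 8.33% and 0%. The Zbtb16 share of the IL-18R- ST2+ library was below that of myeloid-list cells of the pool. At 2000 UMIs per cell the shares in the pool and the library labelled all-negative were 37.9% and 42.5% for Tcf7, 11.4% and 6.70% for Zbtb16, 14.6% and 4.47% for Sox4, and 10.4% and 3.35% for Tox2. At that depth 46 myeloid-list cells of the pool had Zbtb16 in 6.52%. The 11.4% of the pool (7.95 to 15.8) lay above that value, and the 6.70% was close to it. That value rests on few cells of the pool, so it cannot say whether the 6.70% was background. By level, Sox4 (4.47-fold, 3.08 to 6.70), Zbtb16 (3.15-fold, 2.05 to 5.06), Tox2 (2.62-fold, 1.75 to 4.07) and Lef1 (2.06-fold, 1.26 to 3.53) were higher in the pool than in the library labelled all-negative, 4 of 9 measured members where 4.43% of genes were, and 0 were lower, where 4.27% were. That comparison was also added after the levels had been seen. The ILC3 list summed to 171 UPM in these cells of the pool and 764 UPM in those of the library labelled all-negative, and the NK list to 200 and 102 UPM; their part in the differences was not tested. Tcf7 and Zbtb16 occurred together in 65 of 280 cells of the pool (23.2%), in 9 of 180 of the library labelled all-negative (5%) and in 0 of 83 of the IL-18R- ST2+ library. If the factors occurred independently, the pool would give 19.0% and the library labelled all-negative 7.45%. The pool was therefore 1.22 times the product of its single shares, and the library labelled all-negative 0.671 times. The pool joins 2 sorts, and factors whose shares differ between sorts depart from this product even if independent within each sort. The part of the sorts in the ratio was not tested.

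Depth bears on such counts, since pool cells of this class had a median of 6223 UMIs, against 4940 and 4759 in the other libraries. With each cell thinned to 2000 UMIs, Tcf7 and Zbtb16 were together in 18 of 280 cells of the pool (6.43%, product 4.33%) and in 4 of 179 of the library labelled all-negative (2.23%, product 2.85%). The pool thus stayed above its product, and the part of background Zbtb16 UMIs in its 18 cells was not tested. In the library labelled all-negative the Zbtb16 share was close to that of myeloid-list cells of the pool. Its 4 cells with both factors are too few to give a direction.

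Among the thinned pool cells, pairs among Zbtb16, Tox2, Sox4 and Tox had ratios to the product above 1, and Bcl11b had ratios below 1 with each of them. The pair Zbtb16 and Tox2 was seen in 9 cells, 2.72 times the product of the single shares, and Tox2 and Sox4 in 11 cells, 2.59 times. Zbtb16 and Sox4 (10 cells) had 2.13 times, Zbtb16 and Tox (9 cells) 1.88 times and Tox and Sox4 (11 cells) 1.79 times. All pairs of these 4 factors thus lay above 1, the lowest being Tox and Tox2 at 1.38. Bcl11b had 0.453 times with Tox2 (3 cells), 0.533 times with Sox4 (5 cells), 0.547 times with Zbtb16 (4 cells) and 0.833 times with Tox (8 cells).

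Bcl11b was not set against every factor. With Nfil3 it had 1.73 times the product (17 cells), with Tcf7 0.991 and with Id2 1.18. Tcf7 itself was near 1 with Tox2 (1.00) and Lef1 (0.924), and its highest ratio among the pairs drawn was with Zbtb16 (1.49). These are small numbers of cells from 1 library, and ratios of this kind describe that library without a test. The part of its 2 pooled sorts in the ratios, and of background UMIs in those of Zbtb16, was not tested either.

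**Figure D4:**
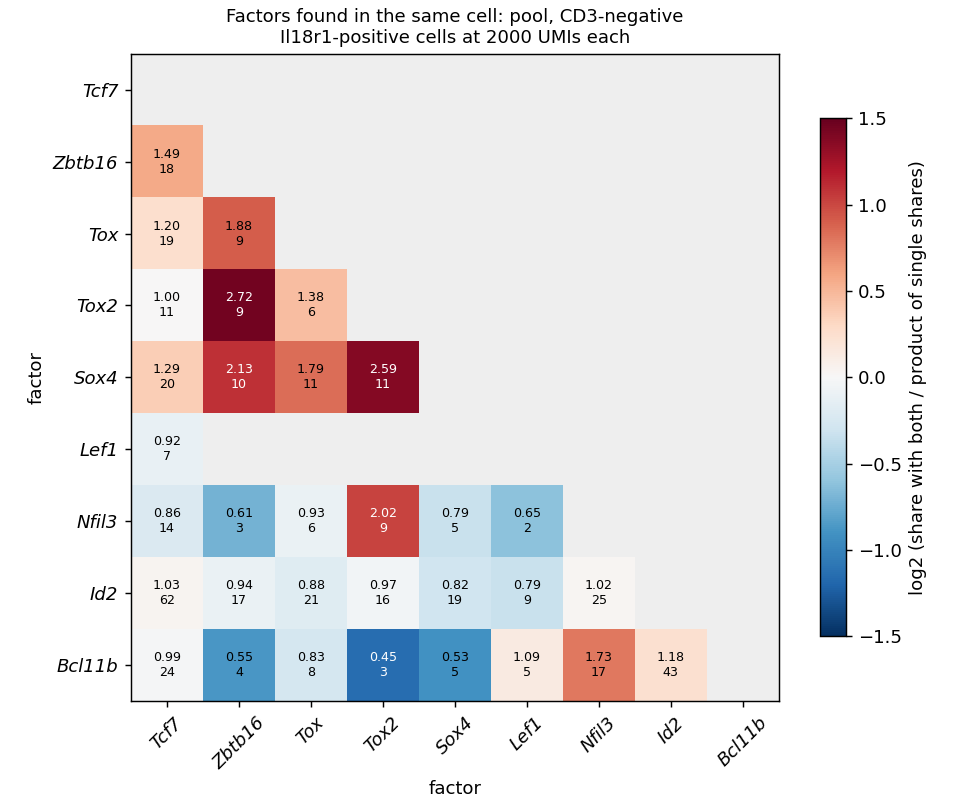
Share of pool CD3-negative Il18r1-positive cells holding both factors over the product of the single shares, after thinning to 2000 UMIs per cell; colour gives the log2 ratio, and each square gives the ratio and below it the number of cells with both. Grey squares had a product under 3 cells or are not drawn. Zbtb16, Tox, Tox2 and Sox4 form a red block, and Bcl11b is blue with Zbtb16, Tox2 and Sox4.

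In whole patterns of 6 factors (Tcf7, Zbtb16, Tox, Tox2, Sox4 and Bcl11b) at 2000 UMIs, the most common pattern after none of them was Tcf7 alone in the pool and the library labelled all-negative. It was seen in 14.3% of the pool cells and 27.4% of the cells of the library labelled all-negative. In the IL-18R- ST2+ library it was seen in 2.44%, behind Bcl11b alone and Tox alone (7.32%). Bcl11b alone had shares of 9.29%, 9.5% and 24.4% in the pool, the library labelled all-negative and the IL-18R- ST2+ library. None of the 6 was seen in 32.5%, 34.1% and 63.4%. The 10 members gave a median of 2, 2 and 1 per cell in the 3 libraries.

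Pool cells with both Tcf7 and Zbtb16 were compared with those holding neither. The 65 cells with both had a median of 8470 UMIs and the 81 with neither 5092, so shares were again read at 2000 UMIs. Pdcd1, which encodes the receptor PD-1 that marks ILC progenitors, had a UMI in 47.7% of cells with both (35.2 to 60.5), 13.7% of cells with Tcf7 only, 35.3% of the 17 cells with Zbtb16 only and 12.3% of cells with neither (6.08 to 21.5). Kit was in 46.2%, 23.1%, 23.5% and 17.3% in the same order. Pdcd1 and Kit thus had their highest values where both factors were present, and for both genes that interval lay above that of cells with neither.

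Genes of resident effector cells went the other way. Cxcr6 was in 9.23% of cells with both, against 43.2% of cells with neither, and Itgae, which encodes CD103, in 3.08% against 22.2%. Bcl11b was in 7.69% (2.55 to 17.0) and 23.5% (14.7 to 34.2), with intervals that met, unlike those of Cxcr6 and Itgae. Tox2 (27.7% and 4.94%) and Sox4 (29.2% and 4.94%) were more frequent with both. Gata3 (35.4% and 33.3%), Rora (73.8% and 80.2%) and Il7r (87.7% and 80.2%), genes shared by the ILC2 path and its precursors, differed by less than their intervals.

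**Figure D5:**
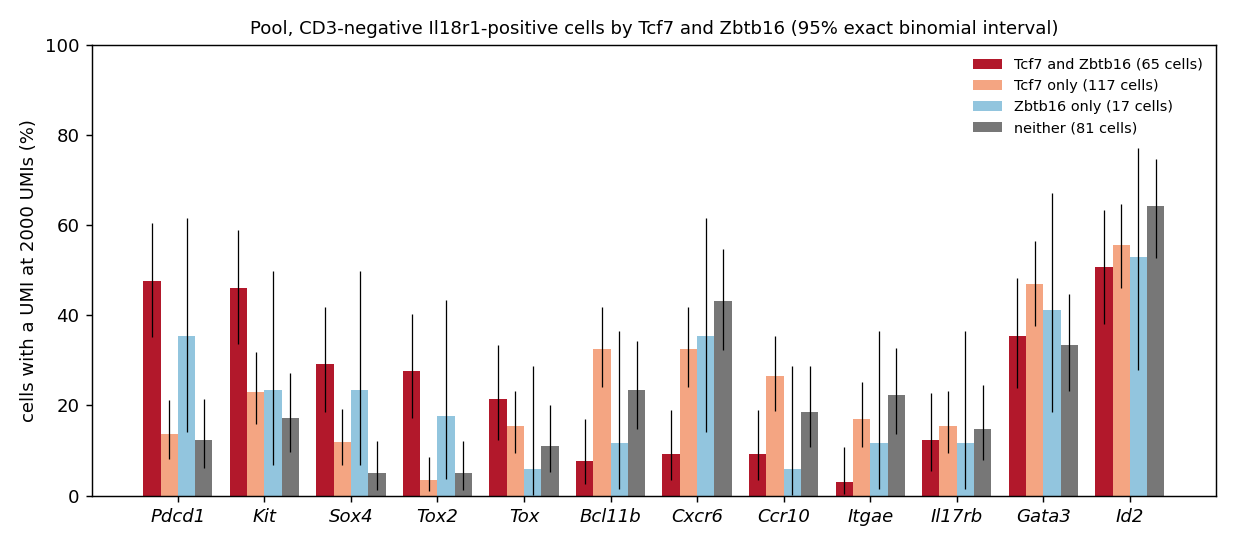
Share of cells with a UMI (y axis, %) at 2000 UMIs per cell for 12 genes (x axis) in pool CD3-negative Il18r1-positive cells that hold Tcf7 and Zbtb16, Tcf7 only, Zbtb16 only or neither; bars start at 0 and lines are exact 95% binomial intervals. Pdcd1, Kit, Sox4 and Tox2 are most frequent where both factors are present, and Cxcr6 and Itgae least.

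By level, Cacna1e, a calcium channel gene, had the largest ratio toward cells with both: 131 UPM in cells with both and 4.27 UPM in cells with neither, 2 UMIs. Tox2 had 178 UPM in cells with both and 19.2 UPM in cells with neither. In all 15.4% of 6198 genes differed at least 2-fold in either direction between these sets. The genes higher in cells with neither were led by S100a9 and S100a8, which are neutrophil genes, and 3 of those cells carried other-lineage marker sets. With other lineages left out, 15.5% of genes differed, and the leading genes were Gzma, Il2 (5.08 UPM in cells with both and 96.2 UPM in cells with neither), Actn2, Ly6c2, Ifng, Klra4 and Itgae (13.5 and 116 UPM). All 129 Gzma UMIs of the cells with neither lay in 4 of 78 cells, and Ly6c2 and Klra4 in 2 cells each, whereas Il2 was in 23 and Itgae in 28. Cacna1e, Tox2, Maml3 and Eng stayed on the side of cells with both. Eng is an endothelial gene as well, and Cldn5, of the endothelium list, was among the leading genes before other lineages were left out, with 54.0 UPM in cells with both (12 of 65 cells) and 4.27 UPM in cells with neither (2 of 81). The list summed to 83.5 UPM in all 280 cells, with 4 of 5 genes detected and Kdr at 0; its part in the difference was not tested.

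Cells with both Tox2 and Sox4 were led by some of the same genes. In the 34 cells with both, against the 166 with neither, Cacna1e had 183 and 0.991 UPM, Igfbp7 224 and 5.95 UPM, and Mef2c, a transcription factor, 212 and 21.8 UPM. Maml3, a coactivator of Notch, and Eng were again among the leading genes. Between these sets 21.1% of genes differed at least 2-fold, with and without other lineages, and the cells with both were deeper, with medians of 9394 and 5196 UMIs; this pair of sets was chosen after the levels had been seen, and the part of depth in it was not tested.

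Splitting the same cells by 1 factor at a time, a split added after the levels had been seen, gave Bcl11b a pattern opposite to that of Sox4 and Tox2. At 2000 UMIs Itgae was in 26.3% of the 118 pool cells with Bcl11b and 6.79% of the 162 without, and Il17rb, the IL-25 receptor chain of ILC2s, in 24.6% and 6.79%. With Sox4, Itgae was in 2.13% of 94 cells, and without it in 21.5% of 186. The part of the 2 pooled sorts, which CD103 divided, was not tested. Ncr1, a gene of ILC1 and NK cells, was in 0.847% of cells with Bcl11b and 9.26% of those without. Pdcd1 was in 55.6% of the 54 cells with Tox2 and 14.6% of the 226 without.

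The library labelled all-negative repeated only some of this. Its cells with Bcl11b had Ncr1 in 1.61% and those without in 9.40%, close to the pool, and Il17rb in 11.3% and 4.27%. Itgae was near 0 there with or without Bcl11b, at 1.61% and 0.855%, in a library labelled CD103-. Pdcd1 was in 13.3% of its 15 cells with Tox2 and 17.7% of the 165 without. With 9 cells holding both Tcf7 and Zbtb16, that library gives wide limits for the same sets: Kit was in 22.2% of them (2.81 to 60.0).

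Gamma delta cells showed another arrangement. In the library labelled all-negative, at 2000 UMIs, Tcf7 and Lef1 were together in 70 of 1444 cells, 1.57 times the product of the single shares. Lef1 had 0.687 times with Bcl11b, 0.635 with Nfil3 and 0.674 with Sox13. Lef1 thus went with Tcf7 and apart from the other 3. In the pool, whose gamma delta cells had less Lef1, the pair Tcf7 and Lef1 had 0.841 times (8 of 865 cells), and Lef1 with Nfil3 and with Sox13 0.343 and 0.407 times (4 cells each). Zbtb16 and Sox13 had 1.35 times in the library labelled all-negative and 1.13 times in the pool.

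To see which genes shared a member's profile, levels as log2(UPM + 10) were correlated over 9 library-by-class points among 7938 genes. The points share libraries, so r is a description. Genes named were picked as the closest of 7938 over only 9 points, so a high r partly follows from that choice. Bcl11b was closest to Il27ra (r = 0.994), a cytokine receptor chain whose level spanned 11.9 to 136 UPM. Sox13 was closest to Ddx18 (r = 0.984) and Blk (r = 0.979), a kinase of gamma delta T cells and B cells, at 0 to 399 UPM. Id2 was close to Rgs2 (r = 0.982). For Tcf7 the closest was Yipf3 (r = 0.987), for Zbtb16 Krit1 (r = 0.971), for Lef1 Rnf138 (r = 0.963) and for Sox4 Psma1 (r = 0.989). The levels of these partners spanned 30.6 to 61.1, 63.6 to 117, 38.7 to 224 and 76.2 to 138 UPM in that order. Tox2 was closest to Ube2e3 (r = 0.982), Tox to Igbp1 (r = 0.973) and Nfil3 to Wapl (r = 0.963).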

How the data were processed

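The deposited matrices hold whole UMI counts per gene and barcode, not normalised, per the file headers; the authors used Cell Ranger 6.0.1 and build mm10, per the submitters' processing notes. Libraries used 10x 3' v3.1 chemistry, per the labels' protocols. The sources used here do not give the annotation or the cell-calling settings.

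Barcodes with under 500 genes, over 10% mitochondrial UMIs or a Scrublet doublet call were dropped (scanpy 1.11.5; 0.241%, 0.584% and 0.678% called doublets in the pool, the library labelled all-negative and the IL-18R- ST2+ library, so doublets may remain). No ambient RNA removal was run. Kept cells held 8970571, 9598728 and 7891960 UMIs. Counts were summed per library and class and divided by the total (per 1000000 UMIs, UPM). A test was not possible with 1 library per group. The size rule asked for a ratio of at least 2, sums raised to 3 UMIs, and 20 UPM on either side, and was tested on simulated counts. Intervals are exact Poisson, conditional binomial and Clopper-Pearson 95% limits. They cover counting error only. A cell was of another lineage with at least 5 UMIs from at least 2 genes of 1 of 7 marker lists. Shares were also read with each cell thinned to 2000 UMIs, shallower cells left out. TMM scaling used edgeR 4.0.16.

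The members and gene lists were chosen with earlier results of these data known. The text names all 10 members, up to 4 genes per comparison with the largest ratio from a list of 44 development genes, the 2 most similar genes per member (some are left unprinted), up to 8 genes per direction between cell sets, and a fixed set of effector genes. Other genes were named after their values were seen. Alternatives covered scaling, the level minimum, the fold, the cell filter, doublets, other lineages, class definitions and depth.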

Additional observations from a re-analysis of the deposited data

Results flagged for a closer look

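Several members moved in opposite directions in different classes when the pool was set against the library labelled all-negative, with counting intervals on either side of 1; these differences were not tested. Lef1 had a ratio of 1.95 in CD3-negative cells, against 0.349 in gamma delta and 0.372 in alpha beta cells. Sox4 had 3.36 in CD3-negative and 0.438 in gamma delta cells, from 13 UMIs in gamma delta cells of the pool and 52 in those of the library labelled all-negative. Id2 had 0.754 in CD3-negative, 1.16 in gamma delta and 1.48 in alpha beta cells. Bcl11b had 0.763 in CD3-negative, 1.34 in gamma delta and 1.41 in alpha beta cells. Without other lineages its CD3-negative ratio was 0.908 (0.734 to 1.13) and in Il18r1-positive cells 0.853 (0.685 to 1.07), both reaching 1. Of these, Lef1 in both T cell classes and Sox4 in CD3-negative cells passed the 2-fold rule.

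Nfil3 differed between the libraries in the contrast of CD3-negative to alpha beta cells, with a ratio of 0.751 in the pool, against 1.37 in the library labelled all-negative. Neither passed the 2-fold rule, and the difference was not tested.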

How the results depend on the processing

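No paired analysis was possible because each group is 1 library, and none could be left out. Of 252 counts of members recomputed under the alternatives, 20 moved by over 1.5 times or to or from 0. Of 930 single values, 126 moved outside the counting interval of the main ratio and 0 reversed. Reversal was counted only for members past the 2-fold rule in the main comparison. Sign changes of other members, such as Tox in pool over IL-18R- ST2+ under TMM scaling, were not counted. In pool over the library labelled all-negative, members higher in the pool numbered 1 in place of 2 under TMM scaling, median of ratios scaling and without other lineages, each time because Tox2 fell below the level minimum. At 1.5-fold the counts became 1 for members lower in the pool than in the IL-18R- ST2+ library (Id2), 4 for members higher in CD3-negative than gamma delta cells of the pool (also without other lineages), 5 in the library labelled all-negative (1 after thinning to 2000 UMIs, Sox4) and 7 for CD3-negative cells of the pool over IL-18R- ST2+. Shares over all genes were not computed for the alternatives, the 1.5-fold rule included, apart from those given above. These counts therefore show only how the calls of members moved. Members lower in the library labelled all-negative than in IL-18R- ST2+ numbered 1 (Id2) under TMM, median of ratios and 1.5-fold. Members lower in CD3-negative than alpha beta cells numbered 1 (Bcl11b) with disjoint classes in the pool, and 2 (Lef1, Sox13) without other lineages and 1 (Lef1) with disjoint classes in the library labelled all-negative. In gamma delta over alpha beta cells of that library 1 member was higher (Sox13) at 1.5-fold and with disjoint classes, and 1 lower (Lef1) with disjoint classes. Members lower in CD3-negative cells of the pool than of IL-18R- ST2+ numbered 0 without other lineages and in Il18r1-positive cells, an alternative added after seeing the data. The share with Tcf7 and Zbtb16 fell to 6.43% and 11.4% in the pool when thinned to 2000 and 3000 UMIs, and to 2.23% at 2000 UMIs in the library labelled all-negative; without other lineages at 2000 UMIs it was 6.62% and 2.26%. In the pool it stayed above the product of the single shares. Apart from Tox2, the cause of these moves was not tested. TMM moved the median log2 ratio by -0.14 for pool over the library labelled all-negative, -0.32 for pool over IL-18R- ST2+ and -0.47 in CD3-negative cells of the pool over IL-18R- ST2+. Depth limits Tox2 in T cells and Sox13 in CD3-negative cells, where sums are 1 to 15 UMIs.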

Other observations

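The few T cells of the IL-18R- ST2+ library had more Tcf7 and Lef1 than its other cells. Its 15 gamma delta cells had Tcf7 at 307 UPM (199 to 454) and Lef1 at 160 UPM (85.1 to 273), against 14.9 and 22.2 UPM in its 1548 CD3-negative cells. Sox13 had 0 UMIs in them, with an exact upper limit of 45.4 UPM. Its 6 alpha beta cells had Tcf7 at 253 UPM (121 to 466).

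In the IL-18R- ST2+ library Lef1 was found in 9.04% of CD3-negative cells and Tcf7 in 5.88%. In CD3-negative cells of the pool the order was reversed, with Lef1 in 13.2% and Tcf7 in 46.2%.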
